A study of Mus musculus with 4 samples.

Results

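The 10 potassium channel genes of the kidney described here were followed in intact mouse ureteric buds exposed to angiotensin II (AngII). They were the inward rectifiers Kcnj1, Kcnj10, Kcnj15, Kcnj16 and Kcnj8, the tandem-pore channels Kcnk1 and Kcnk5, the voltage-gated channel Kcnq1, and the calcium-activated channels Kcnma1 and Kcnn4. The genes were selected by symbol through the accession of each array probe, with their AngII over media ratios known, so those ratios are given as a description, with no p. All 10 were on the array, with 14 of its 41174 probes. Of these genes 7, with 10 probes, were well above background in at least 1 of the RNAs on all 4 arrays, and 3 were not. Buds, the epithelial outgrowths that form the ureter and collecting ducts, were held for 6 h with AngII at 1e-05 M or with media alone. Media and AngII buds alike sat in matrix gel under medium that contained 10% serum and 2 growth factors, GDNF at 100 ng/ml and HGF at 100 ng/ml. The labels give no strain, genotype or age, and do not say how many buds or animals were pooled. The RNAs came as 2 numbered pairs, and each pair was read on 2 arrays of opposite dye assignment (AngII in Cy5 and media in Cy3, or the reverse), all on 1 slide.

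Potassium channels let potassium leave a cell down its gradient. In renal epithelia they hold the membrane voltage that drives sodium and chloride transport, return to the blood the potassium that the sodium pump takes up, and in the collecting duct secrete potassium into the urine. Inward rectifiers carry most of the resting potassium current of tubule cells, and their pores often need partner subunits. In the adult kidney AngII is known to act on transporters and potassium channels of the distal nephron.

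The channels each had 19028 to 21922 probes well above background, and 14995 features, 1 probe per gene, passed the filter on dim probes. The ratios of the numbered pairs correlated at r = 0.98 across features, and 0 features differed between the pairs at an adjusted p under 0.05 in limma (771 at an unadjusted p under 0.05). The spread of the deviation of a pair from the mean of both had an SD of 0.04 on the log2 scale across features, the same as for a contrast that carries only noise between arrays. The numbered pairs were therefore counted as 1 independent pair of RNA samples, and every limma p below measures only the spread between hybridisations. Of the 21 ureteric and collecting duct markers, 19 were tested, 10 of which were called higher and 7 lower under AngII. Of all features 77.3% were called, 39.1% higher and 38.1% lower (limma, adjusted p below 0.05), so a call by itself is common here. Ret, the GDNF receptor of the ureteric tip, and Foxi1, a factor of intercalated cells, were not well above background on any array. In bulk RNA, fewer cells of a type and less RNA per cell cannot be told apart.

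The members with the highest ratios were Kcnj16, Kcnj8 and Kcnj10, all inward rectifiers, and their promoters are shown because these genes stood together at the top. The sequences are RefSeq's for build GRCm38.p6, cover 250 bases before to 50 bases after an annotated transcript start, and run 5′ to 3′ on the gene's strand. They are Kcnj16 at chr11:110967783-110968082 (plus strand, the first of its 4 annotated starts), Kcnj8 at chr6:142571565-142571864 (minus strand) and Kcnj10 at chr1:172340960-172341259 (plus strand). Capitals mark matches, on either strand, to the 6 short motifs that were searched and are spelled out after the sequences.
Kcnj16: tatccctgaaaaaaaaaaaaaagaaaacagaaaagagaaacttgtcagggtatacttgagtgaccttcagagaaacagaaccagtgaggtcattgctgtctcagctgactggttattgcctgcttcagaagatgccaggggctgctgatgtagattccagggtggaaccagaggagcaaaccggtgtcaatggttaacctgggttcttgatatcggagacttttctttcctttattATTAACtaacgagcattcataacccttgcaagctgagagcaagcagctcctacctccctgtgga
Kcnj8: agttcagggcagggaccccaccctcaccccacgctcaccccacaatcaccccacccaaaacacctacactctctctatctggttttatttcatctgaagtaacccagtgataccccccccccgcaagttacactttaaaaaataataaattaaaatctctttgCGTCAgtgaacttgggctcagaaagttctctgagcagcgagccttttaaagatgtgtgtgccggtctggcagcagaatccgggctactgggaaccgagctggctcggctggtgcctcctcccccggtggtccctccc
Kcnj10: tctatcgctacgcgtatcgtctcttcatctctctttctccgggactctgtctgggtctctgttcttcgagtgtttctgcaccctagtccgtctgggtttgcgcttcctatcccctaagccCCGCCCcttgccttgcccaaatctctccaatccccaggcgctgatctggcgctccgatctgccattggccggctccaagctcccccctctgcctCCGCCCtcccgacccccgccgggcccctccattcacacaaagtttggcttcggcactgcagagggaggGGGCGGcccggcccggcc
The Kcnj16 window held 1 match to GTTAAT, the core of an HNF1 site, 14 bases before the start, and 7.1% of 32851 mouse promoter windows of this length hold one. The Kcnj8 window held 1 match to TGACG, the core of a cAMP response element, as 20.8% of windows did. The Kcnj10 window held 3 matches to the GC box, GGGCGG, a motif present in 35.7% of windows. An AP-1 site, TGANTCA, is found in 7.81% of windows and was in none of these 3. The same was true, for the 3 printed windows, of the TATA box, TATAAA, which 13.6% of windows hold, and of the GATA motif, AGATAA, which 11.2% hold. The motifs did not overlap one another. No motif was shared among the 3 printed windows. Of the 3 other Kcnj16 windows, one held TATA and GATA matches and another a GC box, the motif that Kcnj10 also held. Of the other members with a window, Kcnk5, Kcnma1 and Kcnn4 held the GC box, Kcnj1 the TGACG motif that Kcnj8 held, and Kcnj15 a TATA and a GATA match. A match is a description of letters and not of binding.

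Kcnj16 encodes an inward rectifier subunit that forms basolateral channels with the product of Kcnj10. Its log2 ratios of AngII over media at the brightest probe were 1.31 and 1.30 with AngII in Cy5 (pairs 1 and 2) and 1.49 and 1.47 with AngII in Cy3. All 4 arrays lay close together, at a mean of 1.39, a 2.62-fold higher signal. The normalised log2 level at this probe ran from 9.44 to 10.29 in the AngII RNA and from 8.14 to 8.80 in the media RNA, so the groups did not overlap. The lowest value of each group came from the array of pair 2 with AngII in Cy5, on which the ratio was nevertheless 1.30. Only 0.313% of the 14995 features had a higher mean ratio. A second probe gave 0.94, 0.69, 1.16 and 1.18 on the same arrays, with a mean of 0.99. The third probe, under the same accession, was not well above background in either RNA on any array, and read 21 to 25 in Cy3 against a local background of 17 to 21. The 3 probes share 1 accession, and where on the transcript each lies is not given in the files.

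Kcnj10, the partner of Kcnj16 and the pore of basolateral channels in the distal convoluted tubule and collecting duct, was higher on all 4 arrays. Its log2 ratios were 0.60 and 0.70 with AngII in Cy5 and 0.78 and 0.90 with AngII in Cy3, with a mean of 0.75, or 1.68-fold. The AngII levels lay between 7.07 and 7.12 and the media levels between 6.22 and 6.46, without overlap. The signal was dim, and the media RNA was well above background on 3 of the 4 arrays. The size of this ratio depended on how background was treated: with Agilent's processed signals the mean was 2.06. The same held for the second Kcnj16 probe, at 1.92 with processed signals, while the bright Kcnj16 probe moved little, to 1.59.

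**Figure D1:**
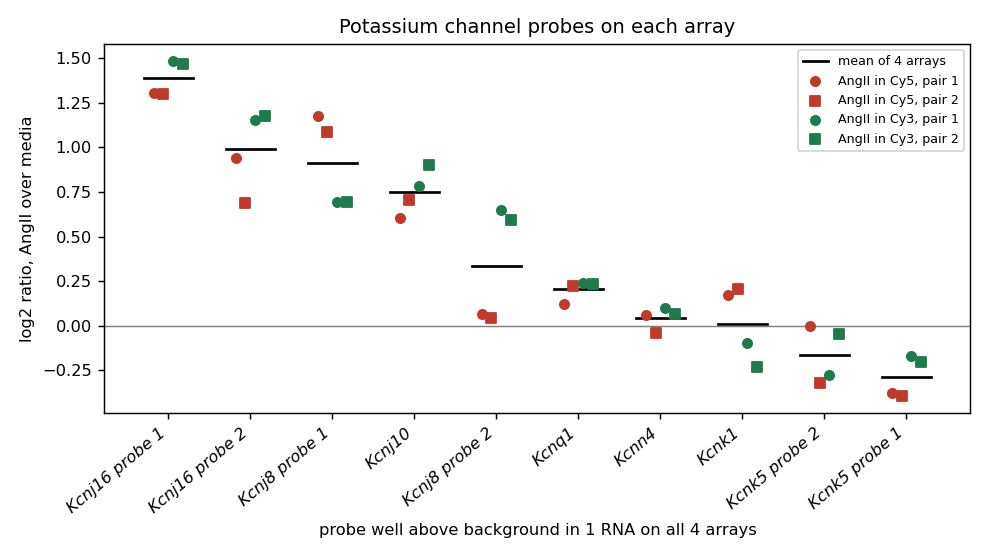
Log2 ratio of AngII over media (y axis) on each of the 4 arrays for the 10 potassium channel probes that were well above background in 1 RNA on all arrays (x axis). Red points had AngII in Cy5 and green points AngII in Cy3, circles are pair 1 and squares pair 2, and bars are means of 4 arrays, from 1.39 for the first Kcnj16 probe to -0.29 for the first Kcnk5 probe.

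Kcnj8 encodes the pore of the ATP-sensitive potassium channel of smooth muscle and pericytes, where it pairs with the sulfonylurea receptor Abcc9. At its bright probe the log2 ratios were 1.18 and 1.08 with AngII in Cy5 and 0.69 in both pairs with AngII in Cy3. The mean was 0.91, a 1.88-fold higher signal, with AngII levels of 10.34 to 10.54 and media levels of 9.36 to 9.74 that did not overlap. The second, dimmer probe gave 0.07 and 0.04 with AngII in Cy5 and 0.65 and 0.59 with AngII in Cy3, for a mean of 0.34. The probes of Kcnj8 thus leaned opposite ways with dye orientation, with deviations of the Cy5 arrays from the overall mean of 0.22 and -0.28. With processed signals the second probe had a mean of 1.09 and the first 0.98. Averaging both probes gave 0.62 for the gene.

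**Figure D2:**
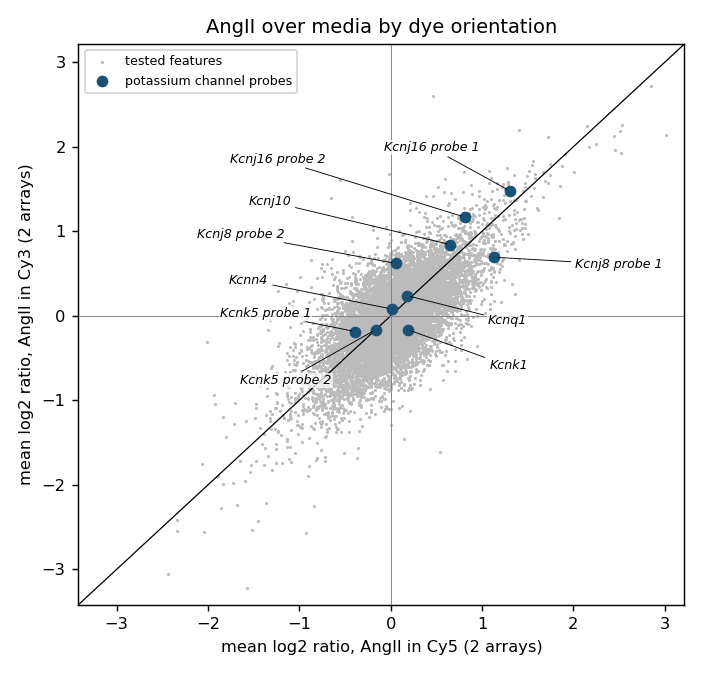
Mean log2 ratio of AngII over media on the 2 arrays with AngII in Cy5 (x axis) against the 2 arrays with AngII in Cy3 (y axis) for 14995 tested features (grey) and 10 potassium channel probes (blue). The line marks equal ratios: both Kcnj16 probes and Kcnj10 lie high in both orientations, the Kcnj8 probes lie on either side of the line, and Kcnk1 changes sign.

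Abcc9, the partner subunit of Kcnj8 and its neighbour in the genome, rose by 0.95 (0.71 to 1.20 over the arrays, limma adjusted p = 1.05e-19). Its other tested probe had 0.13, and with processed signals the ratio was 2.08. Kcnj8 and Abcc9 also mark pericytes and smooth muscle, and the list of 12 such markers, which holds Abcc9, had 7 members called higher and 4 lower (91.7% called, beside 77.3% of all features), with a median of 0.18. Acta2, smooth muscle actin, rose by 1.69 (0.65 at the lowest of its other probes) and Cspg4 by 1.07 (0.66 at its other tested probe). Cnn1, calponin of smooth muscle, fell by 0.89, Mcam by 0.32 and Tagln by 0.36, the last with 0.19 at its other probe. All 12 markers were detected, and their summed level ran from 50750 to 61370 in the AngII RNA and from 52800 to 62320 in the media RNA, overlapping ranges. Tagln, at a mean log2 intensity of 15.36, was the brightest of the 12 and weighs most in that sum, so the overlap does not speak for each marker. What part the number of such cells had in the Kcnj8 ratio was not tested.

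Kcnk1 and Kcnk5 encode tandem-pore channels that carry background potassium current, Kcnk5 being known for its role in bicarbonate handling in the proximal tubule. Kcnk5 was lower on all 4 arrays, at -0.38 and -0.39 with AngII in Cy5 and -0.17 and -0.20 with AngII in Cy3. The mean was -0.29, or 1.22-fold lower, with AngII levels of 6.29 to 6.58 below media levels of 6.67 to 6.78. With processed signals the mean was -0.81. A second Kcnk5 probe, well above background in AngII RNA on 3 arrays, had -0.16 (-0.32 to 0.00), and its levels overlapped between the RNAs. Kcnk1 gave 0.17 and 0.20 with AngII in Cy5 and -0.10 and -0.23 with AngII in Cy3. Its sign followed the dye, the mean was 0.01, and the levels of the RNAs overlapped throughout, at 7.80 to 8.16 for AngII and 7.59 to 8.19 for media.

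Kcnq1, a voltage-gated channel whose behaviour is set by small KCNE subunits, had ratios of 0.12 and 0.22 with AngII in Cy5 and 0.24 in both pairs with AngII in Cy3. Its mean was 0.21, or 1.15-fold, and 0.33 with processed signals. The levels of 7.46 to 7.61 in AngII RNA lay just above those of 7.24 to 7.38 in media RNA. Kcnn4, the intermediate-conductance calcium-activated channel of epithelia and lymphocytes, gave 0.06, -0.04, 0.10 and 0.06, with a mean of 0.04 and overlapping levels. With processed signals the mean of Kcnn4 was 0.25 (0.04 to 0.40 over the arrays). The authors' deposited table had Kcnn4 at 0.10 and called it higher. The Kcnn4 ratio computed here was near 0 beside leukocyte markers that moved both ways. Of the 7 tested, 3 were called higher and 4 lower (100% called, beside 77.3% of all features). The largest ratios were 0.64 for Ptprc and 0.57 for Cd74, while the 4 lower ones were smaller in size, from -0.19 to -0.13. Of 10 leukocyte markers Lyz2 was not well above background on any array, and the summed level was 1017 to 1128 in AngII RNA and 932.4 to 1032 in media RNA. Red cells also carry Kcnn4, and all 7 tested erythroid markers were called higher, as were 39.1% of all features. The summed level of the erythroid markers was 32320 to 39940 in AngII RNA and 6087 to 7223 in media RNA. Of these markers Gata1 was not well above background on any array. The part of leukocytes and red cells in the Kcnn4 signal was not tested.

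Kcnj1, the apical secretory channel of the thick ascending limb and collecting duct, was not well above background in either RNA on any array. Its spot read 23 to 30.5 in Cy3 against a local background of 19 to 20, and 72.5 to 75 in Cy5 against 61.5 to 69. The same held for Kcnj15, a basolateral inward rectifier of the proximal tubule, at 22 to 24 in Cy3 against 16 to 20. Kcnma1, the large-conductance channel behind flow-induced potassium secretion, read 21 to 25 in Cy3 against 18. No ratio is given for these 3 genes, since neither RNA was measured above background. The array holds 1 probe for each of them, so a transcript form that the probe does not cover would not be seen. Slc12a1, a defining cotransporter of the thick ascending limb, was well above background in AngII RNA on 2 arrays and in media RNA on 1.

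**Figure D3:**
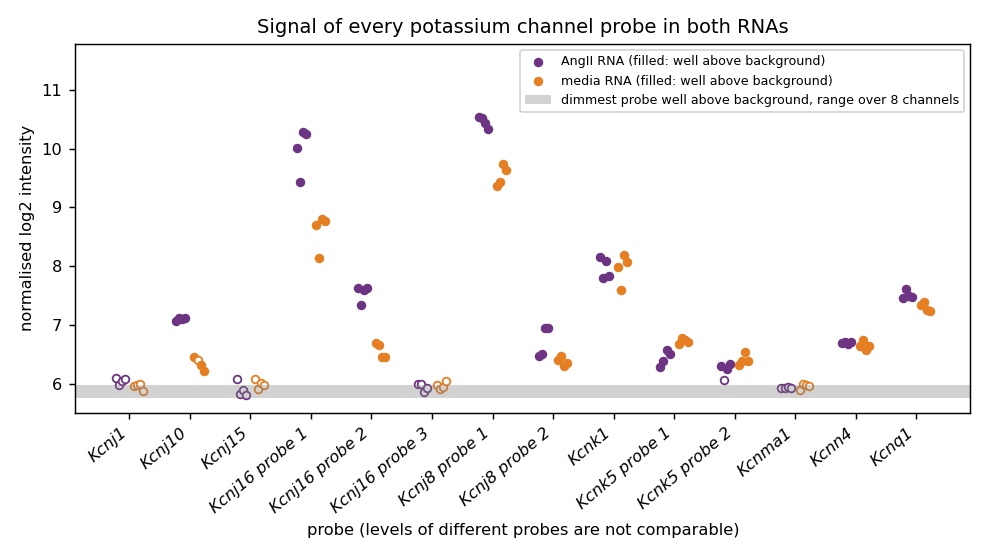
Normalised log2 intensity (y axis) of all 14 potassium channel probes (x axis, by name) on the 4 arrays in AngII RNA (purple) and media RNA (orange); filled points are well above background. The grey band spans the dimmest probe well above background in each of 8 channels: Kcnj1, Kcnj15, Kcnma1 and the third Kcnj16 probe lie in or near it, and at the first probes of Kcnj16 and Kcnj8 the AngII points lie apart from the media points.

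At least 1.5-fold higher were 3 of the 7 measured members, beside 5.5% of all features, and none was at least 1.5-fold lower, beside 5.4%. The members were chosen on these ratios, so these counts describe the choice. By the brightest probe of each gene the order from highest to lowest was Kcnj16, Kcnj8, Kcnj10, Kcnq1, Kcnn4, Kcnk1 and Kcnk5. Kcnj8 and Kcnj10 overlapped in their array values, as did Kcnn4 and Kcnk1, whereas at the brightest probes the lowest Kcnj16 value lay above the highest Kcnj8 value. The second Kcnj16 probe, at 0.69 to 1.18, overlapped with the first Kcnj8 probe. The authors' deposited table also had Kcnj16 highest, at a log2 ratio of 1.46, but placed Kcnj10, at 0.95, above Kcnj8, at 0.92. Without background correction Kcnj10 also stood above Kcnj8, and with processed signals it was the highest member, at 2.06 against 1.59 for Kcnj16 and 0.98 for Kcnj8.

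The other pore genes of the potassium channel families went both ways. Of 70 other pore genes 59 were on the array and 18 were tested, of which 5 rose, 8 fell and 5 did not pass, a share called of 72.2% beside 77.3% of all features. With the replicate block 7 pore genes were called in place of 13, and 2 to 4 when a replicate was left out. Their median log2 ratio was -0.04, beside 0.00 over all features, and the values ran from -0.53 to 0.49. Kcnh2, a voltage-gated channel of the ether-a-go-go family, fell by 0.53 (-0.68 to -0.34, limma adjusted p = 5.94e-14). Kcnj11, the inward rectifier closest to Kcnj8, fell by 0.45 (-0.72 to -0.22), and by 1.31 with processed signals. The voltage-gated Kcna1 fell by 0.44 and the inward rectifier Kcnj4 by 0.36. The lysosomal channel gene Tmem175 rose by 0.49 (0.42 to 0.60, and 0.87 with processed signals) and Kcnn1, a small-conductance calcium-activated channel, by 0.46. Kcnj2, Kcnj6 and Kcnj9, which lie next to Kcnj16, Kcnj15 and Kcnj10 in the genome, were not well above background in either RNA on any array.

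Auxiliary subunits were tested for 11 of 25 genes, of which 7 rose and 2 fell, while the other 2 were not called. The share called was thus 81.8%, beside 77.3% of all features (39.1% higher and 38.1% lower). The median log2 ratio of the tested subunits was 0.11. With the replicate block, or with a replicate left out, 2 were called in place of 9. Kcne3, a subunit that holds Kcnq1 channels open in epithelia, rose by 0.56 (0.34 to 0.77, limma adjusted p = 1.52e-14), and its other tested probe had 0.33. With processed signals Kcne3 had 0.86, and the Cy3 orientation alone gave 0.35. Kcne1, another Kcnq1 subunit, had 0.13 (0.00 to 0.23), a call lost with median centring. The signal of Kcne1 was dim, and with processed signals it had 1.19. Abcc8, the other sulfonylurea receptor, had 0.17 (0.00 to 0.39), and its call was lost with the Cy3 orientation alone (adjusted p = 0.948). Kcnab2 had 0.14 and Kcnip3 0.09 (0.58 and 0.86 with processed signals). Dpp6 had -0.12 (-0.30 with processed signals) and Kcnmb4, a subunit of Kcnma1 channels, -0.10 (-0.16). With the replicate number as a block the calls of Kcne1, Abcc8, Kcnab2, Kcnip3, Dpp6 and Kcnmb4 were lost, at adjusted p from 0.184 to 0.341. Kcne2 and Lrrc26 were not tested, and Lrrc26, which opens Kcnma1 channels at rest, was not well above background on any array.

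**Figure D4:**
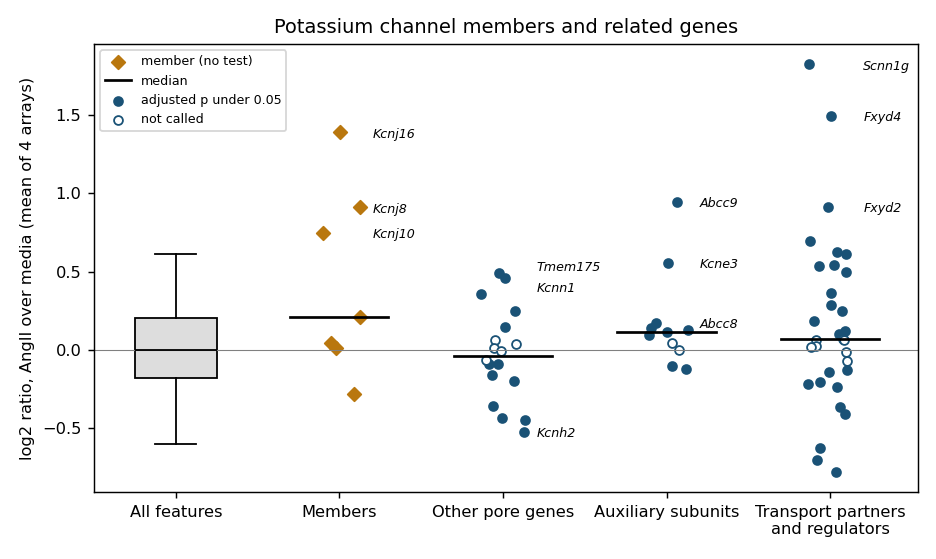
Mean log2 ratio of AngII over media (y axis) for the 7 measured members, 18 other pore genes, 11 auxiliary subunits and 32 transport partners and regulators. Bars are list medians, filled circles passed an adjusted p under 0.05, members (diamonds) carry no test, and the box spans the middle 50% of 14995 features with whiskers from the 5th to the 95th percentile. Kcnj16, Kcnj8 and Kcnj10 lie above the upper whisker at 0.61, and none of the 18 other pore genes shown does. The members were chosen with these ratios known, so this contrast describes the choice.

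Genes for proteins that work beside these channels went both ways: of 32 tested, 15 rose, 10 fell and 7 were not called. The share called was 78.1%, beside 77.3% of all features (39.1% higher and 38.1% lower). The median log2 ratio of these genes was 0.07. With the replicate block 13 were called in place of 25, and 12 with a replicate left out. Scnn1g and Scnn1a, epithelial sodium channel subunits whose current drives potassium secretion, rose by 1.83 and 0.63, the latter 1.41 with processed signals. The sodium pump modulators Fxyd4 and Fxyd2 rose on all 4 arrays, by 1.46 to 1.56 and by a mean of 0.91 (0.85 to 1.03, and 1.58 with processed signals). Nr3c1, the glucocorticoid receptor, rose by 0.69 (other probes 0.28 to 0.54), and the kinase gene Sgk1 by 0.53 (0.34 to 0.72). Oxsr1, a kinase that acts on cation-chloride cotransporters, fell by 0.78 (another probe had -0.52), and the potassium-chloride cotransporter gene Slc12a4 by 0.71. Among the WNK kinases upstream of Oxsr1, Wnk4 had 0.18, a call lost with the replicate block (adjusted p = 0.113). Wnk1 had -0.07 and did not pass, with -0.42 at its other probe, and it passed with processed signals (-0.11), with the mean of its probes (-0.24) and, with opposite signs, in each dye orientation alone (0.13 and -0.28). Nedd4l, a ubiquitin ligase that limits the sodium channel, was not well above background on any array.

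The protein-coding neighbours of the members in the RefSeq gene order, a set chosen after seeing the data, were 20 genes, of which 10 were tested, with 4 called higher, 4 lower and 2 neither, beside 77.3% of all features called. Beside Kcnj16, Map2k6, a MAP kinase kinase, rose by 0.85 (0.75 to 0.95). The other neighbour of Kcnj8, Ldhb, had -0.16 (-0.40 to 0.08), and Pigm beside Kcnj10 had -0.04 and did not pass. Kcnk1, at 0.01, lay between Map3k21 and Slc35f3, which rose by 0.91 and 1.11, the latter 1.82 with processed signals. Cdkn1c beside Kcnq1 fell by 0.88 and Saysd1 beside Kcnk5 by 0.40. Fli1 beside Kcnj1 fell by 0.63, and Smg9 beside Kcnn4 had 0.06 and did not pass.

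By Euclidean distance between log2 ratios over the 4 arrays, the named genes nearest to Kcnj16 were Bmper (distance 0.108, mean ratio 1.39), Abcc4 (0.150, 1.33) and Tspan8 (0.163, 1.40). Nearest to Kcnk5 were Stx5a (0.019, -0.28), Foxo1 (0.034, -0.30) and Arhgef12 (0.048, -0.29). The numbered pairs were counted as 1 independent pair of RNAs, so this was read as likeness of size and dye lean only.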

How the data were processed

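RNA of AngII and media buds (300 ng total RNA a label, per the labels' protocols) was read on 4 arrays. Per the file headers, the scanner software was Feature Extraction in version 10.5.1.1, and the submitters' processing notes list limma with no version. Of the deposited intensity columns, the median spot and local background intensities are uncorrected, and per the file headers Agilent's processed intensities had background removed and dyes balanced. Also deposited are a log10 ratio, not used here, and spot flags, handled as a score. The authors' deposited table holds a log2 ratio, an adjusted p-value and a call (a score of -1, 0 or 1). How it was normalised is not given in the sources used here. Its ratios and those computed here correlated at r = 0.995.

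In R 4.3.3, limma 3.58.1 was run with normexp (offset 50) and loess on each array, in which control spots had weight 0. Flagged outlier spots were dropped, saturated spots kept, replicate spots averaged, and arrays with AngII in Cy3 turned. The offset, added in both channels, lowers the ratio of dim spots by construction. Levels were taken per channel after Aquantile scaling. A probe's brightness also depends on its sequence, so levels of different probes do not rank their transcripts, and a sum of levels is weighted to its brightest probes. A probe stayed if AngII RNA on all 4 arrays, or media RNA on all 4, was well above background, as held for 19393 of 41174. Each gene was tested on its brightest such probe with complete ratios, giving 14995 features. After averaging arrays within a replicate number, lmFit and eBayes tested the 2 ratios against 0, with a Benjamini-Hochberg adjusted p below 0.05 over all features as the threshold. AngII and media RNA of 1 number share an array, which makes every ratio paired. The labels call the pairs biological replicates and name no separate animals. The number of arrays limits the precision.

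Probe accessions, stripped of versions, were looked up in RefSeq's GRCm38.p6 gene table, and 25097 probes received a name. Since the array annotation uses mm9, coordinates are printed only for RefSeq's promoter windows, which were found for 9 of the 10 members (12 windows). The members and gene lists were chosen with earlier results of these data known. Outside the members, the named genes were the 6 largest called changes with 1 sign on all 4 arrays in each list, genes fixed by name, the 2 largest ratios in each marker list, and the 3 nearest by distance to the highest and the lowest member. Cnn1, Tagln, Mcam, Lyz2, Ret, Foxi1, Gata1 and most genomic neighbours lie outside this rule and were picked with their values in view. Of the marker lists not described above, nephron had 4 called higher and 4 lower of 9 tested, and stromal 3 and 1 of 8. Endothelial markers had 1 and 5 of 7, and neural markers 0 and 2 of 3. Of all features 39.1% were called higher and 38.1% lower. Some results are not reported here. The alternatives tried were processed signals, no background correction, median centring, the replicate block, leaving out a replicate, each dye orientation alone, no filter and a stricter filter, and the mean of a gene's probes.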

Additional observations from a re-analysis of the deposited data

Results flagged for a closer look

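Kcnq1, at a mean log2 ratio of 0.21 over the 4 arrays, had 1 array apart from the rest. The array of pair 1 with AngII in Cy5 gave 0.12, and the other 3 lay between 0.22 and 0.24. The gap was 0.853 of the whole range, above Dixon's critical value for 4 values. That critical value assumes independent values, and these arrays share RNAs and differ in dye, so the flag is a description only. With independent values chance flags about 1 in 20 groups of 4, and 10 probes were examined. The cause was not tested.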

How the results depend on the processing

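With the replicate block, 4641 features passed in place of 11588, and 7 other pore genes, 2 auxiliary subunits and 13 transport partners in place of 13, 9 and 25. Leaving out a replicate left 2212 to 2942 features, 2 to 4 pore genes, 2 auxiliary subunits and 12 partners. These fits count the difference between dye orientations as error, whereas it cancels in the averaged dye swaps. The other alternatives kept these 4 counts within 1.5 times. With median centring the auxiliary subunits split 4 higher to 2 lower in place of 7 to 2. Ldhb turned from -0.16 to 0.069 in the Cy5 orientation alone. Of the measured members Kcnk1 changed sign under some alternatives, the other 6 kept theirs under those run, and Kcnj10 was left out by the stricter filter. Kcnj16 ranged from 1.19 (mean of its probes) to 1.59, Kcnj8 from 0.62 to 1.13, and Kcnj10 from 0.65 to 2.06. The cause of these moves was not tested. Signal over background limits Kcnj10, Kcnk5, Kcnn4 and the second Kcnj8 probe, and gives no value for Kcnj1, Kcnj15 and Kcnma1.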
